A study of Caenorhabditis elegans with 4 samples.

Results

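The regions described here are the peaks of the nuclear receptor NHR-6 on chromosome II of Caenorhabditis elegans. All intervals that the combined peak list places on II were taken, whatever their score, which gave 449 of 2707 peaks (16.6%), on genome build WS220. Binding was mapped by chromatin immunoprecipitation followed by sequencing (ChIP-seq) in L4 hermaphrodites grown at 20 °C. The series holds 2 ChIP libraries, made with antibodies to GFP, and 2 input libraries of total genomic DNA saved from the same extracts. All 4 come from strain OP90, which has the unc-119(ed3) mutation on III and the biolistic transgene wgIs90. The transgene supplies unc-119(+) as a rescue marker, and encodes the tagged receptor as nhr-6::TY1::EGFP::3xFLAG. Its site of insertion and copy number are not given in the labels. Per the labels, the strain was not outcrossed, and the fusion protein was seen in neurons around the pharynx at the L2 stage. The chromatin came from whole worms. The labels number the replicates without saying that they came from separate cultures, and the spread between them may therefore be technical.

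NHR-6 is the worm's member of the NR4A family, orphan nuclear receptors that can bind DNA as monomers and switch on target genes without a known hormone. In C. elegans it is known for its part in the development of the spermatheca, the chamber where eggs are fertilised, and in ovulation. Worm autosomes have a broad centre with little recombination and many conserved genes, flanked by arms with more recombination and more repeats. For this reason the place of a peak along the chromosome is given below, by dividing the span of II into 3 equal pieces, called the left arm, the centre and the right arm. These are pieces of equal length and not measured recombination boundaries. No genome or gene annotation of build WS220 was used here, so the peaks are named by position and no gene or sequence is assigned to them.

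Peaks on II were unevenly spread from end to end, with a sparse left arm and a right arm as full as the centre. The left arm, up to position 5092294, held 85 peaks (18.9%, 95% Wilson interval 15.6 to 22.8). The centre held 185 (41.2%, 36.7 to 45.8) and the right arm, from position 10184590, held 179 (39.9%, 35.4 to 44.5). These counts correspond to 16.7, 36.3 and 35.2 peaks per Mb. All intervals in this text cover the counting of peaks only. A peak list gives no read counts, so the depth of the libraries is unknown.

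Both replicates placed their strongest peaks in the same way. Taking from each replicate as many of its highest-ranked peaks as the combined list holds, replicate 1 put 88 of its 411 peaks on II in the left arm (21.4%) and replicate 2 put 77 of 413 there (18.6%). The right arm held 157 (38.2%) and 151 (36.6%) of them. The full replicate lists, which include many weak peaks, showed a smaller imbalance: the left arm held 1074 of 4102 peaks on II in replicate 1 (26.2%) and 1188 of 4627 in replicate 2 (25.7%). In each of these lists the left arm had the fewest peaks of the 3 pieces. The shares of 21.4% and 18.6% lay closer to each other than either lay to an even division.

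**Figure D1:**
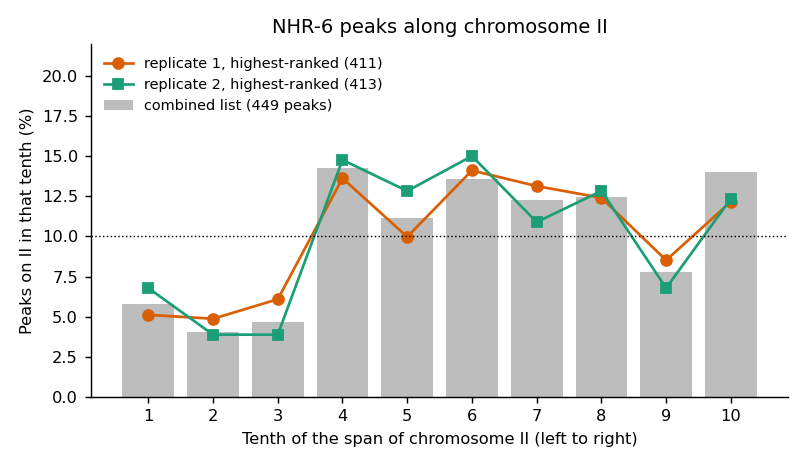
Share of the peaks on chromosome II (percent) in each of 10 equal segments of its span, from left to right. Bars are the combined list, points are the highest-ranked peaks of each replicate, and the dotted line marks an even division. The first 3 segments hold 5.79%, 4.01% and 4.68% of combined peaks, and the fourth holds 14.3%.

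The combined list changed sharply along the left part of II. With the span cut into 10 equal segments, the first 3 held 26, 18 and 21 combined peaks, and the fourth held 64. Together the first 3 segments carried 65 peaks (14.5%), which is 14.2 per Mb, against 35.9 per Mb over the rest of the chromosome. In bins of 500 kb, the 9 bins before 4.5 Mb held 3 to 14 peaks each, with a median of 6, and 64 in all. The 21 bins from there to 15 Mb held 10 to 29, with a median of 17. Both cuts, after the third segment and at 4.5 Mb, lie where these same counts rise. The size of the contrast is therefore partly built into the choice. A second, smaller dip lay in the ninth segment with 35 peaks, and the last segment held 63. The highest-ranked peaks of replicates 1 and 2 also dipped there, with 35 and 28 in the ninth segment and 50 and 51 in the last. In the full lists the dip was slight, with 443 and 466 peaks in the ninth segment, 454 and 517 in the last, and fewer still, 409 and 459, in the seventh. The contrast between the first 3 segments and the rest was also smaller in the full lists, at 199 against 298 peaks per Mb in replicate 1 and 219 against 339 in replicate 2.

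The lean of II to the right was the largest of the 6 nuclear chromosomes in each of the 5 lists examined. In the combined list the right arm of II held 2.11 times as many peaks as its left arm, whereas the ratio on the other chromosomes ranged from 0.736 on I to 1.40 on V. Among the highest-ranked peaks it was 1.78 on II in replicate 1, with the others between 0.866 and 1.33, and 1.96 on II in replicate 2, with the others between 0.743 and 1.36. In the full lists it was 1.40 (others 0.789 to 1.10) and 1.45 (others 0.818 to 1.06). Of the 18 pieces of the 6 chromosomes in the combined list, the left arm of II ranked second from the sparsest, after the left arm of V at 14.1 peaks per Mb. The right arm of II was the densest of the 6 right arms in the combined list, with III next at 31.8 per Mb. In the replicate lists the right arm of III was the densest. The centre of II was not unusual, since its share of 41.2% lay within the range of the other chromosomes, 31.4% on X to 50.8% on V. No test was made of these or of the later differences between chromosomes: there is 1 combined list, chromosomes are not replicates, and neighbouring peaks are not independent.

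**Figure D2:**
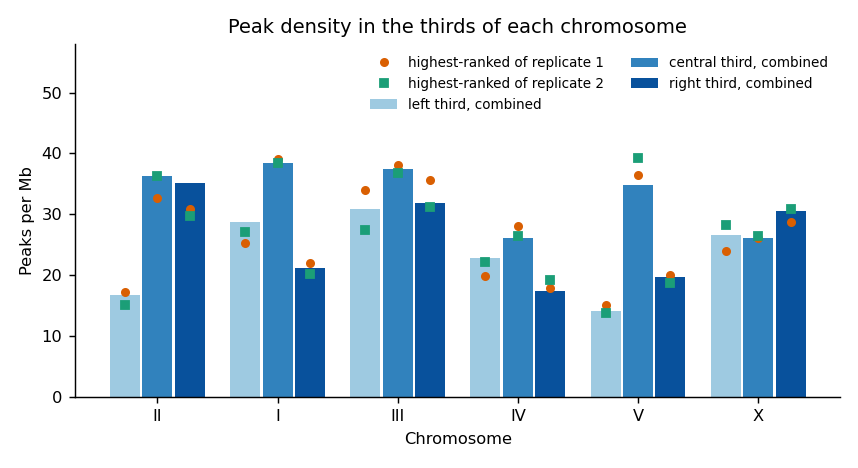
Peaks per Mb in the left, central and right of 3 equal pieces of each nuclear chromosome, with II at the left. Bars are the combined list and points the highest-ranked peaks of each replicate. On II the left piece stands at 16.7 per Mb, below the centre at 36.3 and the right piece at 35.2.

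Sparse as it was, the left arm did not hold weaker peaks. Peaks were ranked within a list by the score the authors deposited, with ties ordered by the authors' peak number. The highest score was shared by 73.0% of combined peaks, so the first 1353 combined ranks follow peak number alone. Among lower scores the 2 orders conflict. The combined peak numbered 1978 stood at rank 2236, and the peak numbered 2236 at rank 1978. Combined ranks below the shared score therefore depend on which order is taken. In the left arm 43 of 85 peaks lay within the first 1353 of the 2707 combined ranks (50.6%, 40.2 to 61.0), compared with 81 of 185 in the centre (43.8%, 36.8 to 51.0) and 84 of 179 in the right arm (46.9%, 39.8 to 54.2). These intervals overlap. The left arm also held 4 of the 11 peaks of II that were among the first 100 of the whole list. Its peaks stood farther apart, with a median distance of 32.4 kb between neighbours, against 14.7 kb in the centre and 14.8 kb in the right arm.

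The 3 longest stretches of II without a combined peak all lay in the left arm. The first ran from 3077395 to 3439157, with 362 kb between the midpoints of the peaks on either side. Within it replicate 1 listed 49 peaks, the best at rank 1252, and replicate 2 listed 57, the best at rank 4464. The second ran from 1852153 to 2195473 (344 kb) and held 40 and 46 replicate peaks, the best at ranks 2013 and 3898. The third ran from 1320753 to 1663451 (343 kb) and began at one of the strongest peaks of the chromosome, at rank 36. It held 52 and 68 replicate peaks, the best at ranks 4125 and 2563. Replicate peaks were thus present in each stretch, at 117 to 152 per Mb in replicate 1 and 134 to 198 per Mb in replicate 2, compared with 269 and 303 per Mb over II as a whole. Over the whole left arm they stood at 211 and 233 per Mb. In the 3 stretches they were thinner, but not absent. The stretches were picked for lacking a peak in a list made from these libraries, so the thinning is partly built into the choice.

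Chromosome II carried the highest-ranked peak of the whole combined list and yet relatively few of the strongest. The leading peak spanned 10563365 to 10563677 in the right arm, 313 bp, at rank 13 in replicate 1 and rank 10 in replicate 2. The next on II, at combined rank 6, spanned 3786590 to 3786880 in the left arm and stood at ranks 17 and 15 in replicates 1 and 2. It had no other combined peak within 10 kb, and its nearest neighbour lay 21.5 kb away. The strongest peak of the centre, at rank 27, spanned 8185020 to 8185287 and stood at ranks 35 and 94. It too was alone, with 27.02 kb to its neighbour. Each arm and the centre thus had a peak among the first 27 of the combined list.

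The remainder of the 20 highest-ranked peaks of II ran down to combined rank 160. In the left arm these were 1320493 to 1320753 (rank 36), 4376784 to 4377034 (rank 41), 255215 to 255490 (rank 59), 24559 to 24764 (rank 122), 5055260 to 5055459 (rank 147) and 4299316 to 4299550 (rank 160). The peak at rank 36 was the most isolated of the 20, with 73.6 kb to its nearest neighbour. The peak at rank 59 stood at rank 26 in replicate 1 but at 416 in replicate 2, and the peak at rank 160 went the other way, at 910 and 85.

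In the centre these strong peaks were 8561242 to 8561511 (rank 29), 5336879 to 5337110 (rank 61), 5844609 to 5844929 (rank 80), 9603436 to 9603673 (rank 97), 6951400 to 6951623 (rank 107), 9274049 to 9274227 (rank 118) and 9060307 to 9060567 (rank 125). The peak at rank 80 overlapped a second combined peak, whose midpoint was 0.180 kb away. In the right arm they were 11967518 to 11967764 (rank 87), 10868767 to 10869018 (rank 117), 12944810 to 12945029 (rank 128) and 11453042 to 11453242 (rank 153). The first peak of II past these 20 stood at rank 183.

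All 20 were peaks of both replicates, as were 98.8% of all combined peaks. They stood at ranks 13 to 910 in replicate 1 and 10 to 454 in replicate 2. By place, 7 lay in the left arm, 8 in the centre and 5 in the right arm. Of all peaks of II the left arm held 18.9%, but 20 peaks are few, and the difference was not tested. Of the 20, 12 stood in a group with another peak within 10 kb and 8 stood alone, close to the division over all of II, where 261 of 449 were grouped. Every one of the 20 carries the highest score of the list, which 73.0% of all combined peaks share, so their order among themselves follows the authors' peak number.

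Below its leading peaks, II leaned to the lower ranks. It held 11 of the first 100 combined peaks, which is 2.45% of its own peaks, against 3.94% over the other chromosomes, where the share ran from 1.55% on IV to 6.69% on V. In the first 10% of the ranking stood 31 of its 449 peaks (6.90%, 4.91 to 9.63), against 10.6% of the peaks elsewhere. The first 1353 ranks held 208 (46.3%, 41.8 to 50.9), against 50.7% elsewhere, and this was the lowest share of the 6 chromosomes, next to 47.6% on I. Likewise 310 peaks (69.0%) had the highest score, against 73.8% elsewhere, with 70.4% on I the nearest.

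The density of II depended on which ranks were counted. Over the whole list II held 29.4 peaks per Mb, against 26.6 over the other chromosomes, a ratio of 1.11. Chromosome III was denser and I nearly equal. In the first 1353 ranks II had 13.6 per Mb against 13.5 elsewhere, a ratio of 1.01. In the remaining 1354 ranks it had 15.8 against 13.1, a ratio of 1.20. Among the highest-ranked peaks of replicate 1 alone and of replicate 2 alone the ratio was 1.004 and 1.012. The greater density of II in the combined list was therefore carried by peaks of lower rank, and neither replicate alone showed it among its strongest peaks.

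By median replicate rank, II stood behind all the other chromosomes in replicate 1 and behind all but I in replicate 2. How the combined ranks arose from the replicates is not known. Each combined peak was assigned the best rank among the replicate peaks that shared at least 1 bp with it. In replicate 1 the median over the peaks of II was 2080 (quartiles 836 and 3335), behind all the other chromosomes, whose medians ran from 1483 on V to 1827 on X. In replicate 2 the median on II was 1451 (quartiles 783 and 2548), within the range of the others, 1272 on IV to 1505 on I. Over the other chromosomes together the medians were 1648 in replicate 1 and 1368 in replicate 2. Of the peaks of II, 284 (63.3%) overlapped one of the 2707 highest-ranked peaks of replicate 1, where the other chromosomes had 69.0% to 78.3%. In replicate 2 the count was 343 (76.4%), where the others had 77.2% to 79.8%. Both replicates met this mark for 204 peaks of II (45.4%), against 55.4% elsewhere.

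**Figure D3:**
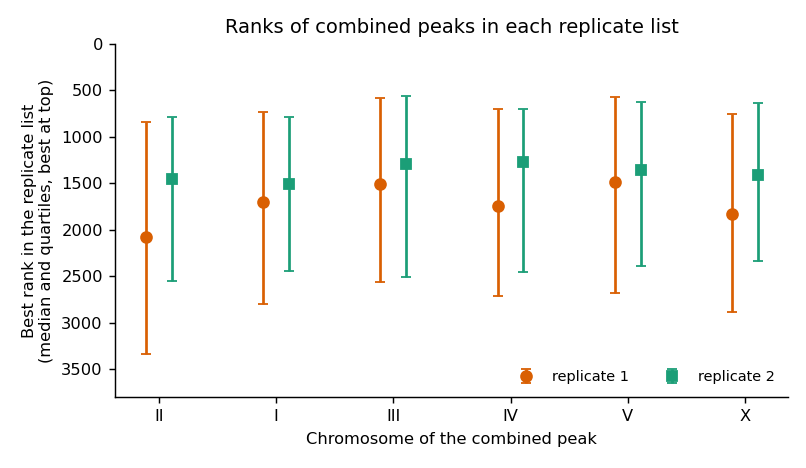
Best rank of the overlapping replicate peak for the combined peaks of each chromosome, with II at the left. Points are medians and bars run between the quartiles, with the best ranks at the top. In replicate 1 the median on II, 2080, lies behind those of the other 5 chromosomes. In replicate 2 it is 1451, behind all but I.

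The ranks of the replicates were only loosely related on II. Over the 445 peaks found in both, Spearman's rho between the best rank in replicate 1 and that in replicate 2 was 0.22, compared with 0.18 on I and 0.37 on III, the extremes of the other chromosomes. These values run across peaks of 1 list that was made from both replicates, so they are a description only. The combined rank followed replicate 2 (rho 0.75) more closely than replicate 1 (rho 0.59) on II, as it did over the other chromosomes (0.77 and 0.62).

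Nearly every peak of II was listed by both replicates. Replicate 1 overlapped 445 of 449 (99.1%, 97.7 to 99.7), where the share over all combined peaks was 99.0%. Replicate 2 overlapped all 449, where the share over all was 99.8%. Both overlapped 445 (99.1%), where the share over all was 98.8%. The combined list was made from these libraries, and the counts on II stand close to the background, so they describe the list and say nothing particular about II. With overlap of 50% of both peaks required, 367 of 449 (81.7%) were supported in both, against 83.1% elsewhere.

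The 4 peaks of II that replicate 1 did not list were all in replicate 2. They spanned 2320085 to 2320594 (combined rank 2546, rank 1116 in replicate 2), 5885881 to 5886390 (2300 and 599), 9077306 to 9077815 (2210 and 702) and 10548889 to 10549061 (1364 and 1233). Replicate 1 came close to some of them. It had a peak at rank 423 only 57 bp from the last and a peak at rank 649 at 431 bp from the second. For the other pair its nearest peaks were 2530 bp and 4180 bp away and weak, at ranks 12067 and 19917. One of the 4, the peak at 10548889, belongs to the largest group of peaks on the chromosome.

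In the other direction, strong replicate peaks on II were mostly kept in the combined list. Of the first 1000 ranks, replicate 1 had 135 peaks on II, of which 127 overlapped a combined peak (94.1%, 88.7 to 97.0), against 96.3% on the other chromosomes. Replicate 2 had 149, all of which did (97.5 to 100), against 97.8%. Over the full lists the share fell to 14.3% of 4102 peaks and 11.9% of 4627, against 13.2% and 11.2% elsewhere. The great majority of replicate peaks on II, mostly of low rank, thus have no counterpart in the combined list.

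Neighbouring peaks on II stood close together. The median distance between the midpoints of neighbours was 16.7 kb, with quartiles at 4.87 and 46.8 kb, and the mean was 34.0 kb. Distances under 10 kb made up 170 of 448 (37.9%), against 34.1% over the other chromosomes, and those under 1 kb made up 21 (4.69%), against 5.10%. Distances over 100 kb numbered 30 (6.70%), against 8.88%. The median on the other chromosomes ran from 15.2 kb on III to 29.9 kb on IV. Among the highest-ranked peaks of a single replicate the median on II was 18.0 kb in replicate 1, against 18.8 kb elsewhere, and 20.1 kb in replicate 2, against 19.0 kb elsewhere. The closer spacing on II therefore did not hold in replicate 2, where the direction turned.

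**Figure D4:**
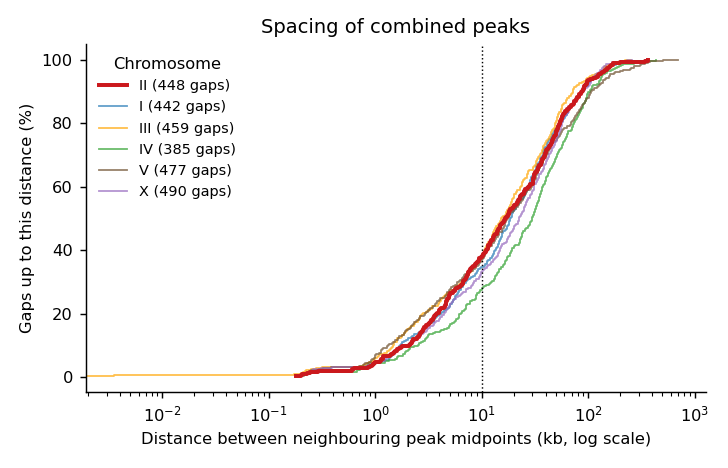
Cumulative share (percent) of distances between the midpoints of neighbouring combined peaks, in kb on a log axis, for each nuclear chromosome. The thick line is II and the dotted line marks 10 kb, under which 37.9% of the distances on II fall. The curve of II runs among those of the other chromosomes.

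Chained while the gap to the next peak was at most 10 kb, the 449 peaks formed 276 separate regions. Of these, 188 were single peaks, 50 were pairs, 19 held 3 peaks, 11 held 4 and 8 held 5 or more. Grouped peaks numbered 261 (58.1%, 53.5 to 62.6), against 55.4% elsewhere, where the share ran from 48.4% on IV to 61.1% on III. Among the highest-ranked peaks of replicate 1 the share was 61.6% on II against 58.1% elsewhere, and in replicate 2 it was 56.2% against 58.7%. The replicates thus gave opposite directions. By place, 48.2% of the left arm's peaks were grouped, 58.9% of the centre's and 62.0% of the right arm's. Grouped and single peaks were of like rank, with medians of 1467 and 1490.

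Large groups held more of the peaks of II than of most chromosomes in the combined list. The 8 groups of 5 or more held 60 peaks (13.4%), against 8.24% elsewhere, with V higher at 15.9%. Among the highest-ranked peaks such groups held 15.6% on II in replicate 1, against 11.3% elsewhere. In replicate 2 they held 8.72%, against 10.7%, so this difference was not shared by the replicates. None of the 8 lay in the left arm, where the largest group held 4 peaks. The centre had 3 of them and the right arm had 5.

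The largest group on II lay in the right arm at 10527571 to 10563677, with 11 peaks in 36.1 kb. The leading peak of the whole list forms its right edge. The other 10 members extended to its left only, at distances of 4.51 to 35.7 kb between midpoints. They were much weaker, the best at rank 403 (10541989 to 10542171), followed by ranks 1060, 1264 and 1364, and the last at rank 2687. Of the 11, 4 stood within the first 1353 ranks, 6 had the highest score and 3 were narrower than usual. Replicate 1 listed 34 peaks over the same interval, which merge into 22 separate stretches, and replicate 2 listed 39, which merge into 29. Of those, 12 in replicate 1 and 6 in replicate 2 were among the 2707 highest-ranked of their list. In both replicates the peak at the right edge was the best of the interval, followed by the one 21.4 kb to its left, at rank 368 in replicate 1 and 897 in replicate 2. Replicate peaks to the right of the interval were not counted, so its right edge is set by the combined list alone.

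**Figure D5:**
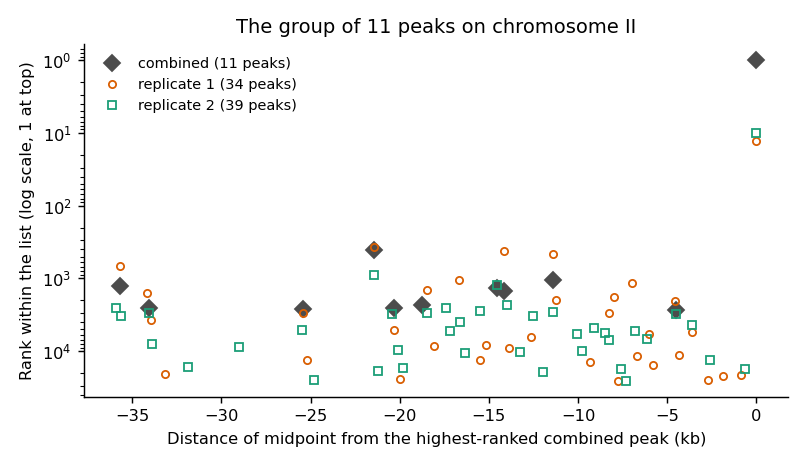
Peaks of the 3 lists over the largest group on II, by the distance of their midpoint from the leading combined peak (kb) and their rank within the list (log axis, rank 1 at the top). Filled symbols are the 11 combined peaks, and open symbols the 34 and 39 peaks of replicates 1 and 2. Replicate peaks are shown only within the interval of the combined group, which ends at the leading peak. Within it that peak is the best of each list, and the next best lies 21.4 kb to its left.

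The nearest of the other large groups lay to its left. It spanned 10384525 to 10395573, with 5 peaks in 11.05 kb, which made it the tightest of the 8 at 4.53 peaks per 10 kb. Its best peak had rank 695, and the replicates listed 7 and 9 peaks there.

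The remaining right-arm groups lay near the right end. They spanned 14036543 to 14063490 (8 peaks, best rank 291), 14383692 to 14408121 (7 peaks, best rank 332) and 14794828 to 14822791 (6 peaks, best rank 194). Together these 3 groups account for 21 of the 38 peaks between 14036543 and 14822791, a stretch of 786 kb with 48.3 peaks per Mb. The stretch is bounded by groups picked for holding many peaks, so its density is partly built into the choice. The middle group had the best median rank of the 8, at 921, with 5 of its 7 peaks within the first 1353 ranks. In the first group the replicates disagreed on some members: the peak at 14036543 to 14037052 had rank 7717 in replicate 1 and 1032 in replicate 2, and the one at 14042437 to 14042946 had ranks 707 and 9969.

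In the centre, the group at 5321899 to 5346755 held 8 peaks in 24.9 kb, and its best peak, at 5336879, ranks 61. The group at 6320943 to 6356094 also held 8 peaks, over 35.2 kb, with no member better than rank 447 and all of the usual width. The group at 6822220 to 6853389 held 7 peaks with a best rank of 402. Its best rank in replicate 1 was 114, at the member 6842657 to 6842835, which stood at 1387 in replicate 2. Its best rank in replicate 2 was 1312, at another member, 6852880 to 6853389, which stood at 3070 in replicate 1. Apart from the group of 11, each of these groups had every member listed by both replicates, as were 98.8% of all combined peaks.

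The widths of the peaks on II varied in 1 direction only. The usual width of the combined list, 510 bp, was shared by 370 of the 449 (82.4%, 78.6 to 85.6), against 81.3% elsewhere. None was wider, as on I, IV, V and X, while III had peaks of up to 2742 bp. The other 79 (17.6%) were narrower, from 128 to 321 bp, with a median of 200 bp. Narrow peaks of II mostly ranked high: 73 of the 79 stood within the first 1353 ranks. The 20 highest-ranked of II were all narrow, at 179 to 321 bp. Neither share is given for the other chromosomes, so these counts say nothing particular about II. Most peaks of II in the first 1353 ranks were still of the usual width, 64.9% of 208, against 64.0% elsewhere. The share of narrow peaks was 16.5% in the left arm, 16.2% in the centre and 19.6% in the right arm. All 449 intervals were distinct, and 16 of them (3.56%) overlapped another, against 5.004% elsewhere.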

How the data were processed

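The combined list of the series and the list of each of the 2 ChIP replicates were used. No value of the 2 input libraries was analysed. Per the file headers, coordinates are on WormBase build WS220, counted from 1, and the source field of each line names the peak caller SPP and the irreproducible discovery rate (IDR). Not given in the sources used here are the aligner, the settings and the step that joined the replicates. The score of each peak is as the authors deposited it, on no stated scale, and it was used for ranks only, ties following the peak number.

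The span of a chromosome ran from 1 to its largest peak end over the 3 lists. Neighbours were measured between midpoints, and groups were chained while the gap from one end to the next start was at most 10 kb. Overlap meant at least 1 bp in common. Only nuclear chromosomes were compared. Intervals are 95% Wilson intervals. No p-value was computed.

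The members, measures and lists were chosen with earlier results of these data known. Named regions were the 20 highest-ranked peaks of II, the best of each of 3 equal pieces, groups of 5 or more, the 3 longest gaps, and peaks missing from a replicate. A rule for peaks of 3 times the usual width or more found none. The comparison of right with left arm and the median replicate ranks were added after the values were seen. The functions were tested on simulated lists with planted groups and overlaps. Tools were pandas 2.3.3, numpy 2.4.6, scipy 1.17.1 and matplotlib 3.10.9 in Python 3.11.15.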

Additional observations from a re-analysis of the deposited data

How the results depend on the processing

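Of 50 values under another setting, 26 stayed within the spread of the main value and 24 moved. That spread was not the same measure throughout, so the tally has no single meaning. For shares it was the Wilson interval. For the density ratio and median distance it was the standard deviation between the highest-ranked peaks of replicates 1 and 2. For the density ratio this gave 1.0999 to 1.1118, which leaves out both replicates. For the median rank it was the standard deviation over the other chromosomes, 149.7. The cause of a move was not tested unless the setting itself fixes it. The 50 values are levels on II, which cannot change sign. The combined list could not be remade without a replicate, so the highest-ranked peaks of each replicate alone stood in for it. In those of replicate 2, 3 comparisons with the other chromosomes turned. The median distance was 20.1 kb on II against 19.0 kb elsewhere, and the grouped share 56.2% against 58.7%. The share in groups of 5 or more was 8.72% against 10.7%. The density ratio of II, 1.106, was 1.01 in the first 1353 ranks and 1.04 with peaks within 10 kb counted once. It was 1.115 with overlapping peaks merged and 1.04 in either full replicate list. In the highest-ranked peaks of 1 replicate alone it was 1.004 to 1.012. The median distance, 16.7 kb, was 40.3 kb in the first 1353 ranks, which hold fewer peaks. It was 18.0 to 20.1 kb in the highest-ranked peaks of 1 replicate alone. The grouped share, 58.1%, was 44.3% at 5 kb, 75.9% at 20 kb, 38.0% in those first ranks and 51.7% without groups of 5 or more. The central 50% held 58.1%. The left arm's 18.9% became 11.8% for the outer 25%, and 26.2% and 25.7% in the full lists of replicates 1 and 2. It kept within its interval in those first ranks, with close peaks counted once, without large groups, and with either replicate left out. Support in both replicates was 81.7% with 50% overlap, 90.0% with midpoints within 100 bp and 100% in those first ranks. Of the peaks of II, 6.90% lay in the first 10% of the ranking. In the first 1353 ranks 64.9% had the usual width. The median rank in replicate 1, 2080, was 2412 with 50% overlap and 846 in those first ranks, where other chromosomes had 1928 and 744. No paired analysis was possible because no result here comes from a test between groups of samples. The alternatives for the left arm and the median rank, and the grouped share without large groups, were chosen after seeing the data. Depth is unknown, so its effect on any value could not be examined.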
